A study of Mus musculus with 12 samples.

Results

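The proteasome genes described here are the 50 protein-coding genes of the count table whose mouse symbol begins with Psma, Psmb, Psmc, Psmd, Psme, Psmf or Psmg followed by a number. Genes entered the set by symbol alone, from 55401 gene identifiers of which 21897 were protein-coding genes. The set itself was chosen with earlier results of these data known. Another 4 genes matched the symbol rule but are annotated as pseudogenes, reached at most 1 count in any library and were left out. *Psmc3ip* matched by name only: it encodes a partner of the meiotic recombinase and is no proteasome subunit, and it was kept in the counts because the rule includes it.

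The proteasome degrades proteins that carry chains of ubiquitin. Its 20S core is a barrel of stacked rings, in which alpha subunits guard the entrance and beta subunits line the chamber and do the cutting, and its 19S cap binds ubiquitin chains, removes them and unfolds the substrate with a ring of ATPases. Dedicated chaperones help to assemble core and cap, and other activators can take the place of the cap. Oocytes store proteins for long periods and pass them to the embryo, and protein turnover by this complex is needed for the meiotic divisions.

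The counts come from oocytes cut by laser capture microdissection (LCM) out of fixed, paraffin-embedded ovary sections of female F1 mice of the cross C57Bl/6j x CBA/J, aged 7 to 8 days; the study's methods name the substrains C57BL/6JRj and CBA/JRj. Per the study's methods, whole ovaries had been cultured for 5 days with the solvent DMSO, which the labels call sham, or with dorsomorphin (DM), a small molecule that inhibits the energy sensor AMPK and also other kinases. The labels give in vivo as the description, against the culture in the study's methods, which are followed here. The 4 groups are oocytes from primordial follicles, the dormant stage, with DMSO (primordial control) or DM (primordial DM), and oocytes from primary follicles, the first growing stage, with DMSO (primary control) or DM (primary DM). Each group has 3 libraries, each made from pooled oocytes, so a library is a pool and not an animal, and no group carries a transgene or deletion. The labels number the libraries within a group but do not say whether they came from separate ovaries or cultures. The study's figure legends call the pools biologically independent, without giving the ovaries or cultures behind each, so that the p-values measure the spread between these pools, which may be technical in part. The RNA was amplified before library preparation, and reads were counted without molecular identifiers.

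Total counts per library ranged from 14034586 to 42639326, at which a count of 0 allows up to 3 counts, or 0.0704 to 0.214 CPM (the count scaled to the library's total), and this limit covers counting error only. The libraries were uneven in content. Summed over 14 oocyte markers (among them *Ddx4*, *Zp3* and *Gdf9*), levels ranged from 28.2 to 1279 CPM in primordial control, 6.84 to 1074 CPM in primordial DM, 11.3 to 1405 CPM in primary control and 56.4 to 1115 CPM in primary DM. The 10 granulosa cell markers summed to 926 to 3197 CPM, 274 to 2141 CPM, 1775 to 8045 CPM and 1116 to 11211 CPM in the same order of groups. The 8 stromal markers, led by collagen genes, summed to 2164 to 12856 CPM over all 12 libraries, above the oocyte markers in every library, and the 8 immune markers to 0 to 81.8 CPM. The granulosa genes *Cyp19a1* and *Fshr* and the immune genes *Cd52* and *Adgre1* were at 0 in all 12 libraries. Of the 14 oocyte markers, from 0 (primordial DM 3) to 6 (primary control 1) reached 100 counts in a library. In primary DM 2 only *Ddx4* did, with 47451 counts, and 7 were at 0, *Zp3* and *Gdf9* among them. Primordial DM 3 had 9 of the 14 at 0. A high oocyte sum can therefore rest on 1 gene. In bulk libraries such as these, fewer cells of a type and less RNA per cell cannot be told apart, and the part of other cell types in the proteasome counts was not tested.

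Promoter sequence is shown for a few genes that mark the range found among the members: *Psmd2* and *Psmd4*, which reached 100 counts in 11 and 10 of 12 libraries, and *Psmb6* and *Psmg1*, which did so in 4 and 3. Each line gives the 120 bases before the RefSeq start of transcription, on the strand of the gene, in the build GRCm38.p6, and none of these windows overlaps an annotated exon. Capitals mark a match to the core of the antioxidant response element, TGACNNNGC, or of the interferon-stimulated response element, GAAA and again GAAA with 2 bases of any kind between them, on either strand.
Psmd2, chr16:20651532-20651651, plus strand: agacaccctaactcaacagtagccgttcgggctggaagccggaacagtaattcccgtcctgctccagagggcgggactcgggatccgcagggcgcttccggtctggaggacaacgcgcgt
Psmd4, chr3:95042615-95042734, minus strand: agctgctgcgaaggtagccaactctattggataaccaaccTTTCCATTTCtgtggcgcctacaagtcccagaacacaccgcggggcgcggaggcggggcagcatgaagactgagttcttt
Psmb6, chr11:70525237-70525356, plus strand: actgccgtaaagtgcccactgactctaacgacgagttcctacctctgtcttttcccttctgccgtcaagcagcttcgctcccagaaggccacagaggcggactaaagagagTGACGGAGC
Psmg1, chr16:95990961-95991080, minus strand: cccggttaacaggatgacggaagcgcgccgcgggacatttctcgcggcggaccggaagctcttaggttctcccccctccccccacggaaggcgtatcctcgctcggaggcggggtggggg
In the 250 bases before the start, 45 promoter entries of 42 members were available. TGACNNNGC stood in 5 of them (11.1%, against 10.2% of 32851 promoters of all genes), those of *Psmb5*, *Psmb6*, *Psmc6*, *Psmd12* and *Psmd9*. The interferon element stood in 3 (6.67% against 2.98%), those of *Psmb3*, *Psmd4* and *Psmd9*, and the CCAAT box in 15 (33.3% against 33.8%). A match of letters is a description and not a binding site.

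Most proteasome genes were detected, but not evenly. Of the 50 members, 31 (62%) had a count above 0 in all 12 libraries, against 16.3% of all protein-coding genes, and 41 (82%) reached 100 counts in at least 1 library, against 42.0%. *Psma8*, *Psmb11* and *Psme2b* were at 0 in every library and *Psmg4* had a single count, so that 4 members stayed at or under 3 counts throughout. None reached 100 counts in all 12 libraries, and only *Psmd2* did so in 11. The 5 members with at least 10 counts in every library were *Psmd2*, *Psmd7*, *Psmd8*, *Psme3* and *Psme4*.

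The 600 counts, 50 members in 12 libraries, fell into a low and a high band with little between. Of them, 147 were 0, 51 were 1 to 3, 77 were 4 to 9 and 74 were 10 to 49. Only 8 lay between 50 and 99 (1.33%), whereas 57 lay from 100 to under 1000 (9.5%) and 186 were 1000 or more (31.0%). Of the counts of all protein-coding genes, 1.61% lay between 50 and 99, 4.86% from 100 to under 1000 and 9.54% at 1000 or more. These bands differ in width, and whether the sparse range was particular to the members was not tested. Among the 41 members that reached 100 counts somewhere, 249 of 492 counts were under 100, with a median of 5, and the counts of 100 or more had a median of 3974. For 30 of these 41 members, every count under 100 was less than 0.2% of the gene's total over the 12 libraries. In 16 of the 41, a single library held over 50% of the gene's total, and the median share of the leading library was 42.9%, with a range from 22.8% for *Psmd2* to 98.3% for *Psmd10*. A count of 100 therefore separates the bands, and it is used below beside the fitted values. This minimum was chosen after the counts had been seen. Whether the low counts of a gene that is high in other libraries come from the library's own RNA was not tested, so that counts in the low band, including those behind the number of libraries above 0, are given as counts only.

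**Figure D1:**
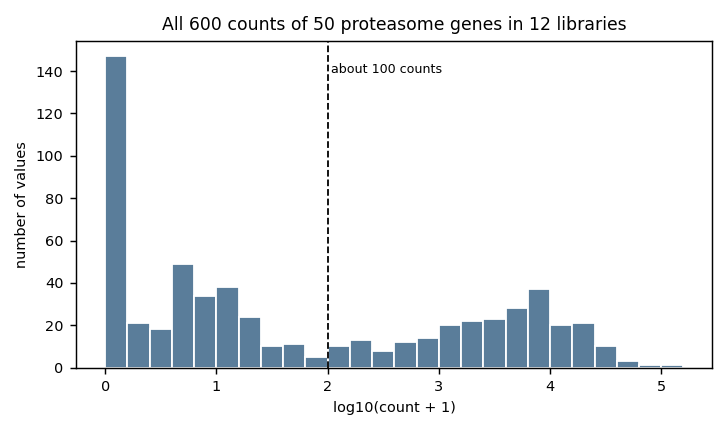
Histogram of the 600 counts (x axis, log10 of count + 1; y axis, number of values) of the 50 proteasome genes in 12 libraries, with a dashed line near 100 counts. A low band that includes 147 zeros and a high band with 186 values of 1000 or more lie on either side of a sparse range around 50 to 99 counts.

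**Figure D2:**
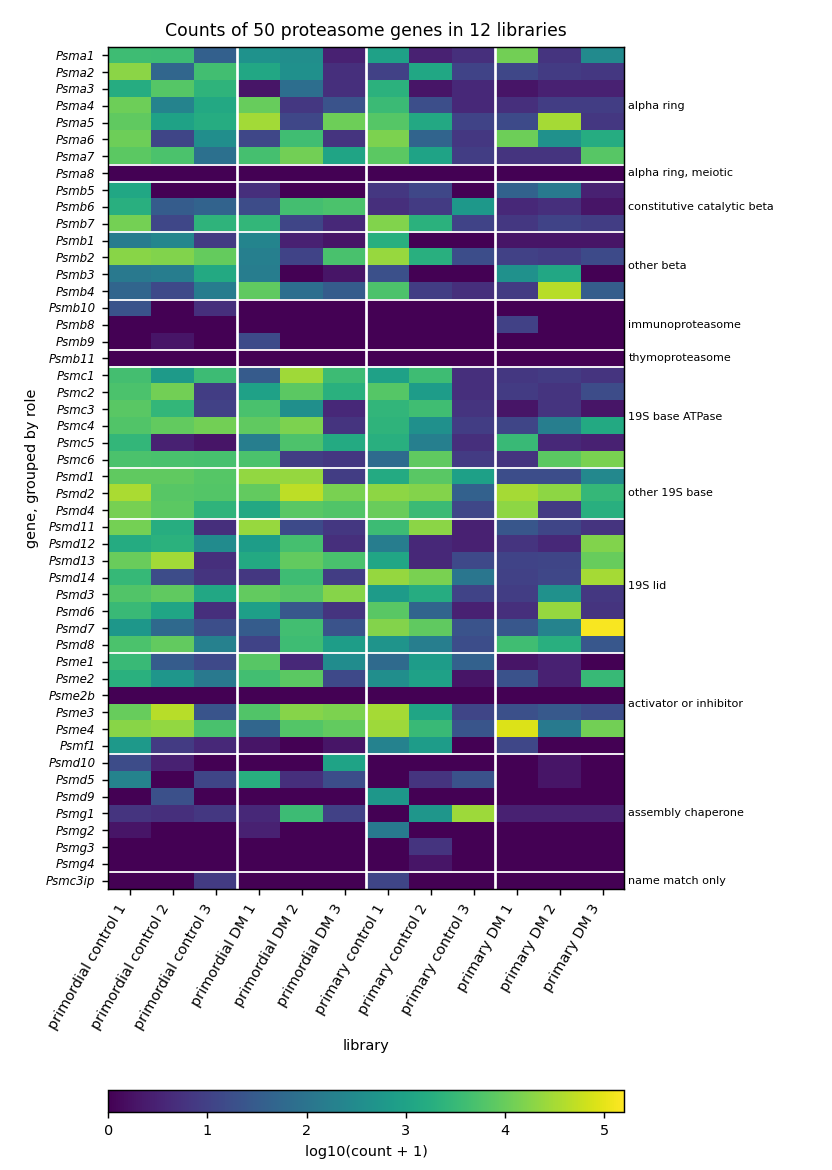
Heatmap of counts (colour, log10 of count + 1) for the 50 genes in rows, grouped by role, in the 12 libraries in columns, 3 per group. Most rows switch between dark and bright cells within a group, *Psmd2* is bright in all libraries except primary control 3, the immunoproteasome rows are dark throughout, and the chaperone rows are dark in most libraries.

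The 7 alpha subunits of the core were at 100 counts or more in 52.4% of their values. *Psma7*, an alpha ring subunit with the highest median of that ring (2901 counts), had 7660, 5261 and 81 counts in primordial control, 4736, 12430 and 1066 in primordial DM, 7731, 1061 and 8 in primary control, and 5, 5 and 7191 in primary DM. All 3 primordial DM libraries were high, and each of the other groups held at least 1 library under 100. *Psma3* had 1673, 6878 and 2381 counts in primordial control but 1, 75 and 4 in primordial DM, so that these groups did not overlap, and it had 2152, 1 and 3 in primary control and 1, 2 and 2 in primary DM. *Psma8*, the alpha subunit of the testis proteasome, was at 0 everywhere.

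The 3 catalytic beta subunits of the constitutive proteasome were at 100 counts or more in 30.6% of their values. *Psmb5*, which carries the chymotrypsin-like activity, had 1265, 0 and 0 counts in primordial control, 4, 0 and 0 in primordial DM, 6, 12 and 0 in primary control, and 42, 139 and 2 in primary DM. It passed 1000 counts in 1 library and 100 counts in only 1 other. *Psmb6*, with the caspase-like activity, had 1910, 31 and 45 counts in primordial control, 15, 4464 and 5225 in primordial DM, 4, 7 and 580 in primary control, and 3, 4 and 1 in primary DM. *Psmb7*, with the trypsin-like activity, had 12717, 12 and 2381 counts in primordial control, 2752, 11 and 3 in primordial DM, 16319, 2052 and 10 in primary control, and 6, 10 and 8 in primary DM. For *Psmb6* and *Psmb7* all primary DM libraries were at 10 counts or fewer. All 3 catalytic subunits together reached 100 counts in 1 library, primordial control 1, while 8 libraries had 1 of them and 3 libraries none.

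The 4 other beta subunits reached 100 counts in 43.8% of their values. *Psmb2*, with the highest median of these (1036.5 counts), had 18671, 16046 and 9335 counts in primordial control, 177, 10 and 5193 in primordial DM, 24919, 1896 and 16 in primary control, and 9, 8 and 14 in primary DM. The primordial control counts lay above those of primordial DM, and on the CPM scale primary control lay above primary DM, although the lowest control count was 16 and the highest DM count 14. *Psmb3* had 127, 157 and 1466 counts in primordial control, 157, 0 and 1 in primordial DM, 18, 0 and 0 in primary control, and 418, 1336 and 0 in primary DM. The subunits that replace the catalytic ones in the immunoproteasome, which cells make after interferon, had at most 20 counts in any library. *Psmb8* had 9 counts in primary DM 1 and 0 elsewhere, *Psmb9* had 14 in primordial DM 1 and 1 in primordial control 2, and *Psmb10* had 20 in primordial control 1 and 4 in primordial control 3. *Psmb11*, the subunit of the thymus, was at 0 throughout.

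At the base of the 19S cap, the 3 members that are no ATPases reached 100 counts in 83.3% of their values and the 6 ATPases in 59.7%. *Psmd2*, a scaffold that holds ubiquitin-bound partners at the cap, had 35079, 7051 and 6342 counts in primordial control, 9074, 48450 and 14554 in primordial DM, 20507, 17230 and 40 in primary control, and 31247, 20518 and 2861 in primary DM. Only primary control 3 was low, and the 4 groups overlapped. *Psmd4*, a ubiquitin receptor, was at 13473, 7767 and 2423 counts in primordial control, 1405, 7518 and 6238 in primordial DM, 10353, 3500 and 12 in primary control, and 20408, 7 and 1941 in primary DM. Of the ATPases, *Psmc6* had the highest median (4982.5 counts), with 5305, 5207 and 4758 counts in primordial control, 5421, 8 and 6 in primordial DM, 66, 8555 and 7 in primary control, and 5, 7712 and 14068 in primary DM. *Psmc1*, another ATPase, had 4426, 666 and 3617 counts in primordial control, 30, 29055 and 3710 in primordial DM, 942, 3934 and 4 in primary control, and 6, 7 and 5 in primary DM, the last group lying below both primordial groups.

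The 8 lid subunits among the members reached 100 counts in 56.3% of their values. *Psmd3* had the highest median (1503.5 counts), with 6026, 8686 and 1316 counts in primordial control, 8871, 7167 and 18185 in primordial DM, 704, 1691 and 10 in primary control, and 8, 426 and 6 in primary DM. *Psmd8* had 5458, 9028 and 195 counts, then 10, 3905 and 780, then 482, 163 and 16, and then 4060, 1923 and 25 in the same order of groups. *Psmd7*, which pairs with the deubiquitinase *Psmd14* in the lid, had 576, 60 and 17 counts in primordial control, 31, 4193 and 20 in primordial DM, 17250, 8561 and 20 in primary control, and 25, 214 and 138083 in primary DM. The last of these was the highest count of any member, and it held 81.7% of the gene's total.

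Of the 6 activators and inhibitors, *Psme4*, which encodes the large activator PA200, had the highest median (7640.5 counts). It had 18750, 22611 and 5105 counts in primordial control, 51, 6292 and 8989 in primordial DM, 27478, 3303 and 23 in primary control, and 84618, 131 and 12389 in primary DM. *Psme3*, the activator subunit of the nucleus, had 9719, 43274 and 21 counts in primordial control, 6250, 18382 and 15107 in primordial DM, 31747, 1147 and 11 in primary control, and 18, 27 and 16 in primary DM. It was high in all 3 primordial DM libraries and low in all 3 primary DM libraries. *Psme1*, which joins with *Psme2* in a mixed ring that interferon induces, had 3345, 32 and 13 counts in primordial control, 7051, 3 and 335 in primordial DM, 63, 741 and 40 in primary control, and 1, 2 and 0 in primary DM. *Psme1* and *Psme2* reached 100 counts together in 3 libraries, *Psme1* alone in 1 and *Psme2* alone in 5. *Psme2b* is 99.4% identical to *Psme2* over 794 bases and was at 0, so that reads of these genes cannot be told apart with certainty.

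The 7 assembly chaperones were at 100 counts or more in 9.52% of their values. *Psmg1*, which with *Psmg2* helps the alpha subunits to form a ring, had 5, 4 and 6 counts in primordial control, 3, 3712 and 9 in primordial DM, 0, 537 and 28034 in primary control, and 2, 2 and 2 in primary DM. It was high in 3 libraries only, and primary control 3 held 86.7% of its total. *Psmg1* and *Psmg2* did not reach 100 counts together in any library. *Psmd5*, a chaperone of the ATPase ring, had 207, 0 and 11 counts in primordial control, 1836, 4 and 16 in primordial DM, 0, 5 and 19 in primary control, and 0, 1 and 0 in primary DM. *Psmd9*, *Psmd10* and *Psmg2* each reached 100 counts in 1 library, and *Psmg3* had 5 counts in 1 library and 0 elsewhere. *Psmc3ip*, the match by name only, had 7 counts in primordial control 3, 11 in primary control 1 and 0 elsewhere.

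**Figure D3:**
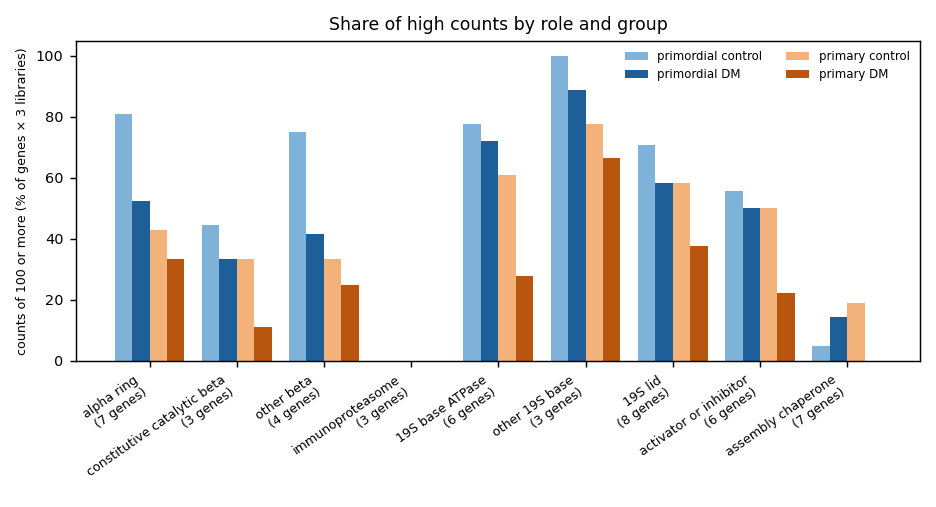
Bars give the share of counts of 100 or more (y axis, % of genes times 3 libraries) for each role with at least 3 genes, in the 4 groups. The cap base without the ATPases ranges from 100% in primordial control to 66.7% in primary DM, the immunoproteasome is at 0 in every group, and the chaperones reach at most 19%, in primary control.

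On a scale that allows genes to be compared, TMM-normalized CPM per kilobase of exon, the order of the levels by the median over 12 libraries began with *Psmd2* (86.8), *Psmd4* (45.8), *Psma5* (38.9), *Psmc4* (23.5) and *Psmb2* (23.5). The level of *Psmd2* was 57.8 ± 23.5 in primordial control, 160 ± 117 in primordial DM, 71.7 ± 62.5 in primary control and 323 ± 237 in primary DM (SD, n = 3 each), and the level of *Psmd4* was 43.3 ± 9.86, 57.6 ± 47.3, 34.5 ± 33.7 and 161 ± 239 in the same order. Over the 12 libraries the level of *Psmd2* had a mean of 153 ± 160 and that of *Psmd4* 74.1 ± 117 (SD). Both genes were measured in the same libraries, and these SDs do not measure the spread of the difference between them, which was not tested. The group values depend on the scale. On plain CPM the mean of *Psmd2* was 512 in primordial control, 772 in primordial DM, 610 in primary control and 566 in primary DM. For *Psmd4* the plain CPM means were 242, 183, 185 and 266 in the same order. The catalytic subunits *Psmb7* (0.300), *Psmb6* (0.254) and *Psmb5* (0.101) had lower median levels per kilobase. With counts in 2 bands the median depends mainly on the number of libraries in which a gene was high. By the mean over 12 libraries the order began with *Psmd7* (374), *Psma5* (268) and *Psmg1* (207), and the means were 15.1 for *Psmb7*, 19.2 for *Psmb6* and 2.53 for *Psmb5*. The level of *Psmb7* was 35.1 ± 46.5 in primary control, beside 34.5 for *Psmd4*, and the level of *Psmb2* was 231 ± 79.3 in primordial control and 0.613 ± 0.175 in primary DM.

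The number of members in the high band varied widely within groups. At 100 counts or more were 36, 25 and 20 members in primordial control (27 ± 8.19, SD, n = 3), 27, 23 and 16 in primordial DM (22 ± 5.57), 32, 25 and 4 in primary control (20.3 ± 14.6), and 8, 13 and 14 in primary DM (11.7 ± 3.21). The 3 primary DM libraries lay below all primordial libraries and below 2 of the 3 primary controls. The share of all protein-coding genes at 100 counts or more was 30.9, 16.5 and 13.9% in primordial control, 18.3, 15.3 and 10.9% in primordial DM, 18.8, 18.9 and 5.28% in primary control, and 9.65, 6.27 and 8.22% in primary DM, with the same 4 libraries lowest. Whether the number of detected genes as a whole accounts for the low counts in primary DM was not tested. At the lower minimum of 10 counts, 19 members passed in each primary DM library, against 33.3 ± 6.03 in primordial control, 28.3 ± 6.66 in primordial DM and 27.7 ± 9.07 in primary control.

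**Figure D4:**
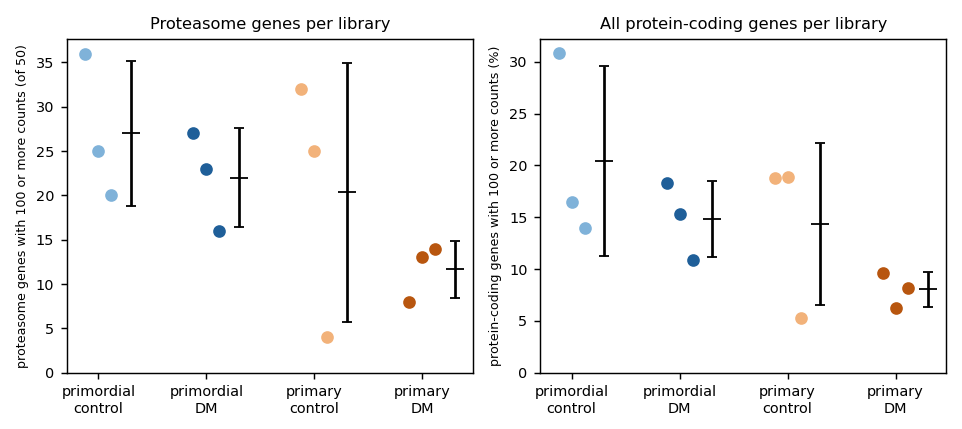
Left, the number of proteasome genes with 100 or more counts (of 50) in each library; right, the share of all protein-coding genes with 100 or more counts (%). Points are libraries, and the bar beside them is the mean ± SD of 3; in both panels primary control 3 and the 3 primary DM libraries hold the lowest values.

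The summed level of the members did not follow their number. The sum was 7003, 5566 and 4412 CPM in primordial control, 4371, 6540 and 4762 CPM in primordial DM, 7238, 7530 and 963 CPM in primary control, and 6112, 3131 and 6879 CPM in primary DM. The group means were 5660 ± 1298, 5224 ± 1156, 5244 ± 3710 and 5374 ± 1980 CPM (SD, n = 3), which on this scale differed by less than the spread between libraries. With TMM normalization the sums were 2975 ± 829, 4255 ± 1176, 3662 ± 802 and 12852 ± 3311 CPM in the same order, and the lowest primary DM library, at 10063, lay above the highest of the others, at 5181. The TMM factors, by which library totals are multiplied, were 0.607, 0.261 and 0.417 in primary DM. They were 0.278 in primary control 3 and 1.02 to 2.87 in the other libraries. The separation of primary DM held on the TMM scale and not on plain CPM, where the groups overlapped. In the primary DM libraries a single gene carried much of the sum: *Psme4* 50.3%, *Psmb4* 33.1% and *Psmd7* 57.2% of the members' counts in libraries 1, 2 and 3. *Psmg1* carried 93.6% in primary control 3. In the primordial libraries the leading member held 13.2 to 21.2%. Without the leading member of each library, the primary DM mean was 2691 ± 518 CPM, against 4692 ± 1264 in primordial control, 4210 ± 830 in primordial DM and 4163 ± 3553 in primary control.

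No library held the whole complex in the high band. Of the 14 constitutive core subunits and 17 cap subunits among the members, primordial control 1 had 13 and 17 at 100 counts or more, and primary control 1 had 10 and 16. Primary control 3 had 1 core and 2 cap subunits, and the 3 primary DM libraries had 3, 5 and 3 core and 4, 7 and 9 cap subunits. The ratio of summed cap to summed core CPM ranged from 0.704 in primary DM 2 to 23.4 in primary DM 3. It was 1.33, 3.17 and 1.61 in primordial control, 1.53, 7.76 and 2.30 in primordial DM, and 1.19, 11.7 and 1.80 in primary control. These sums leave out *Adrm1* and *Sem1*, cap subunits outside the symbol rule. *Adrm1* had 81494 counts in primary control 3 and *Sem1* had 93184 in primary DM 2, so that the ratios and their range depend on the symbol rule.

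Differences between groups were tested with edgeR's quasi-likelihood test on all genes that passed a filter on low counts, with Benjamini-Hochberg adjustment over all of them. A member that passed this filter is called tested below, and a member passes more easily when it is high in a group. Fold changes are log2 values with their standard error (SE), and comparisons that share a group share its libraries.

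DM was compared with control in primordial follicles to ask whether proteasome transcripts differed in dormant oocytes after the inhibitor. No member passed an adjusted p of 0.05 among 36 tested, where 0.0149% of all 6699 genes tested did. With an unadjusted p under 0.05, 1 member was higher (2.48% of all genes) and 0 were lower (4.85%). The member was *Psmg1*, at a log2 fold change of 7.87 (SE 3.95) with an edgeR adjusted p of 0.658, and its DM value rested on a single library of 3712 counts: without primordial DM 2 the fold change was 0.89, and with the replicate number as a block it was 2.13. *Psma3* had the next smallest p, at -6.99 (SE 3.85, edgeR adjusted p = 0.658), and it was lower in 3 of 3 DM libraries. The catalytic subunits *Psmb6*, at 4.06 (SE 3.23, edgeR adjusted p = 0.762), and *Psmb7*, at -2.13 (SE 3.07, edgeR adjusted p = 0.890), lay on opposite sides of 0, and *Psmb5* did not pass the filter. The fold change of *Psmb7* was -8.48 without primordial DM 1, and that of *Psmb6* was 6.53 without primordial control 1 and 2.78 without primordial DM 3. The libraries of *Psma3* and *Psmb2* did not overlap, both lower with DM, where 11% of all genes were lower without overlap and 2.06% higher, and 0 members were higher. The members' median fold change was 0.35, with 20 above 0 and 16 below, and that of all genes 0.13; with library size alone as the scale both were below 0, at -0.22 and -0.43.

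In primary follicles, DM was compared with control to ask the same of growing oocytes. Of 29 members tested 0 passed an adjusted p of 0.05, and 0.0% of all 4181 genes did. With an unadjusted p under 0.05, 1 was higher (4.04% of all genes) and 4 were lower, which is 13.8% of the members tested, where 8.11% of all genes were lower. The higher one was *Psmb3*, at 8.39 (SE 3.78, edgeR adjusted p = 0.395), with 1 of 3 DM libraries at 0 like 2 of the controls. The lower ones were *Psme1*, *Psmb7*, *Psmb2* and *Psmd11*. *Psme1* had a log2 fold change of -7.30 (SE 3.36, edgeR adjusted p = 0.395); since its DM libraries held 3 counts in all, its level pooled over libraries was 374-fold lower, with an exact 95% counting interval from 127 to 1816. Without primary control 2, which held 741 of the control counts, the pooled level was 55.4-fold lower, with an interval from 18.4 to 273, and the log2 fold change was -5.40. Both intervals cover counting error only and leave out the spread between libraries. *Psmb7* was at -7.88 (SE 3.93, edgeR adjusted p = 0.396) and *Psmb5* at 4.44 (SE 2.68, edgeR adjusted p = 0.410), and *Psmb6* did not pass the filter. Without primary DM 2 the fold change of *Psmb5* was 2.64. The libraries of *Psmd1*, *Psmb7*, *Psmb2* and *Psme1* did not overlap on the CPM scale, all 4 lower with DM and again 13.8% of the members tested, where 11.8% of all genes were lower without overlap and 1.27% higher, and 0 members were higher. For *Psmb7* the lowest control count and the highest DM count were both 10, and for *Psmb2* they were 16 and 14. For *Psme1* the lowest control count was 40 and the highest DM count 2. These 3 cases therefore rest on counts in the low band. The members' median fold change was 1.67, with 19 above 0 and 10 below, against 0.31 over all genes. It turned to -0.41, -4.17 and -4.37 without primary DM 1, 2 and 3 in turn, and to -0.22 when library size alone set the scale.

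**Figure D5:**
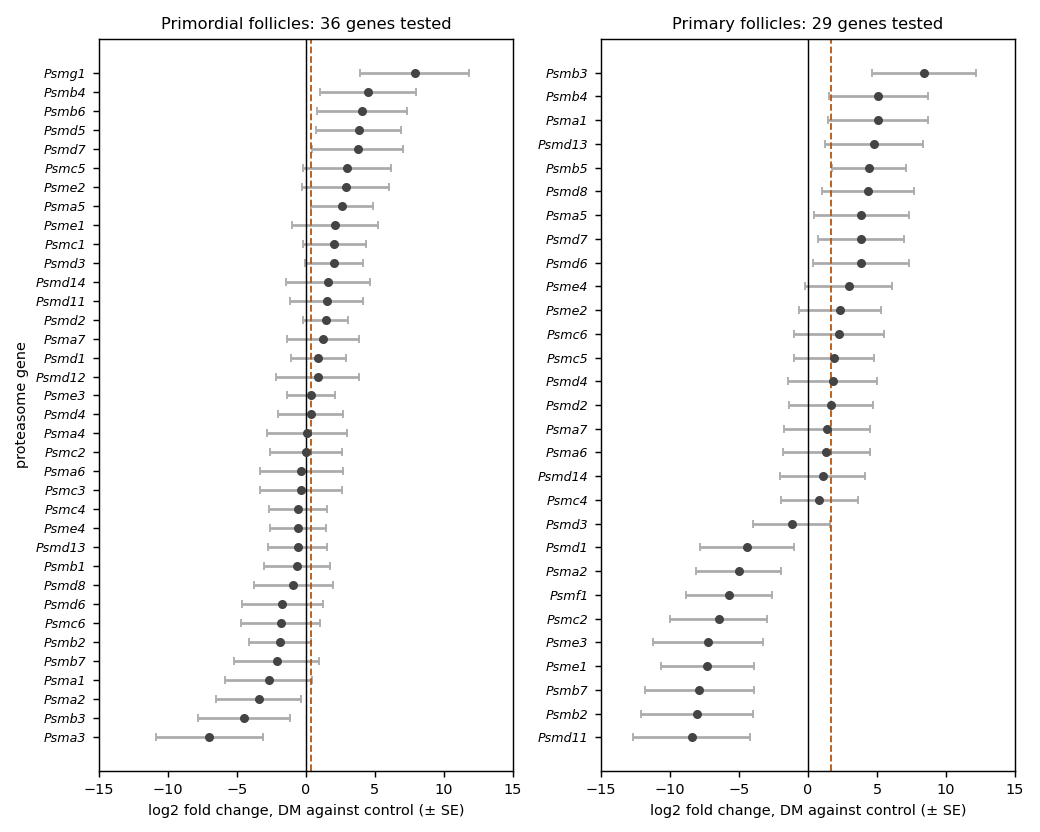
Log2 fold changes of DM against control with their SE (x axis) for the proteasome genes that passed the filter (y axis), 36 in primordial and 29 in primary follicles; the dashed line is their median, 0.35 and 1.67. Values spread on both sides of 0 in both stages, and no gene passed an adjusted p of 0.05.

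Primary was compared with primordial in control oocytes to describe the step into growth. Of 37 members tested 0 passed an adjusted p of 0.05, and 0.0% of all 6726 genes did. With an unadjusted p under 0.05, 2 were higher in primary follicles (2.99% of all genes) and 0 were lower (3.45%). *Psmg1* was at 12.81 (SE 3.51, edgeR adjusted p = 0.205), with 2 of 3 primary libraries above all primordial ones and 1 at 0. *Psmd7* was at 6.23 (SE 3.07, edgeR adjusted p = 0.749), again with 2 of 3 primary libraries above the primordial ones. The fold change of *Psmg1* was 6.18 without primary control 3 and 7.68 with the replicate number as a block. The libraries of *Psmc4*, *Psmb3* and *Psmd12* did not overlap, all 3 lower in primary follicles, where 8.46% of all genes were lower without overlap and 1.23% higher, and 0 members were higher. The median fold change of the members, -0.33, was close to the -0.31 of all genes, and it turned to 0.21 without primordial control 1, to 0.23 without primary control 3 and to 0.04 with DESeq2's size factors.

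The same comparison of stages after DM tested 28 members, of which 0 passed an adjusted p of 0.05, and 0.0% of all 4331 genes did. With an unadjusted p under 0.05, 1 member was higher in primary follicles (5.54% of all genes) and 4 were lower, 14.3% of the members tested, where 11.7% of all genes were lower. *Psmd7* was the higher one, and *Psmb6*, *Psmc1*, *Psmc2* and *Psme3* were lower. *Psmb6* was at -9.27 (SE 3.96, edgeR adjusted p = 0.286) and *Psmc1* at -9.38 (SE 4.17, edgeR adjusted p = 0.286), and in both genes all 3 primary libraries lay below all 3 primordial ones. The lowest primordial count was 15 for *Psmb6* and 30 for *Psmc1*, and the highest primary counts were 4 and 7. Both separations therefore rest on counts in the low band. Altogether 5 members did not overlap and were lower in primary follicles, *Psmc2*, *Psmb6*, *Psmd3*, *Psme3* and *Psmc1*, which is 17.9% of those tested, where 17.0% of all genes were lower without overlap and 1.45% higher, and 0 members were higher. The members' median fold change was 0.68, against 0.35 over all genes. It turned to -1.64, -4.62 and -5.04 without primary DM 1, 2 and 3 in turn, and to -0.94 when library size alone set the scale.

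Whether the DM difference itself differed between stages was tested by the interaction term over all 12 libraries. Of 38 members tested 0 passed an adjusted p of 0.05, and 0.0% of all 8500 genes did. With an unadjusted p under 0.05, 2 had a positive term (9.11% of all genes) and 4 a negative one, 10.5% of the members tested, where 9.78% of all genes had a negative term. *Psmb3* and *Psmb5* were the positive ones, and *Psmg1*, *Psmb6*, *Psmd11* and *Psmc1* the negative ones. *Psmg1* had the smallest p, with a term of -20.74 (SE 5.31, edgeR adjusted p = 0.0974), and its high counts came from primordial DM 2, primary control 2 and primary control 3; the term was -14.12 without the first and -13.70 without the last. *Psmb3* followed, at 13.06 (SE 5.11, edgeR adjusted p = 0.165), and at 19.60 with the replicate number as a block. The members' median term was 0.03, against -0.42 over all genes, and it turned to -1.36 with library size alone as the scale.

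These tests depended on the tool. DESeq2 on the same counts called 1 member for DM in primordial follicles (12.5% of all genes with an adjusted p), 7 for DM in primary follicles (21.2%), 2 for stage in control (5.59%), 9 for stage after DM (24.3%) and 4 for the interaction (11.4%), all at a DESeq2 adjusted p under 0.05. Members with a DESeq2 adjusted p numbered 31, 22, 31, 23 and 28 in the same order of comparisons. The gene for DM in primordial follicles was *Psma3* (log2 fold change -6.80, SE 2.12, DESeq2 adjusted p = 0.0176). Those for DM in primary follicles were *Psmb3*, *Psmd8* and *Psmb5*, higher, and *Psmb2*, *Psmc3*, *Psmb7* and *Psmd11*, lower.

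The biological coefficient of variation that edgeR estimated was 1.76 to 1.90 in the 5 fits, and the median SE of the members' log2 fold changes was 2.92 for DM in primordial and 3.26 for DM in primary follicles.

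Other genes of the ubiquitin-proteasome system were tested in the same fits. Of 25 measured genes, which include the ubiquitin gene *Ubb*, the activating enzyme *Uba1*, the segregase *Vcp*, the cap subunits *Adrm1* and *Sem1* and the shuttle factors of the *Rad23* and *Ubqln* families, 0 passed an adjusted p of 0.05 in any of the 5 comparisons. For DM in primordial follicles 25 were tested with a median log2 fold change of -0.59 (0.13 over all genes), and 0 had an unadjusted p under 0.05. For DM in primary follicles 21 were tested with a median of -2.34 (0.31 over all genes). At an unadjusted p under 0.05 *Ngly1* was higher (4.04% of all genes) and *Adrm1* lower (8.11%). The primary DM counts of *Ngly1* were 2, 32171 and 6, so that its higher value rested on primary DM 2. At the same unadjusted p, *Adrm1* was higher (2.99% of all genes) and *Ufd1* lower (3.45%) in primary than in primordial control. There 25 were tested, with a median of -0.35 (-0.31 over all genes). After DM 1 gene, *Zfand5*, was lower (11.7% of all genes) of 18 tested, with a median of -0.96 (0.35 over all genes). For the interaction 25 were tested, with 10 terms above 0, 15 below and a median of -0.89 (-0.42 over all genes). At an unadjusted p under 0.05 the term was positive for 3 genes (9.11% of all genes) and negative for 1 (9.78%). *Uba1* and *Adrm1* are given in full, a choice made after their values were seen. *Uba1* was high in all 12 libraries, with 28267, 13168 and 10998 counts in primordial control, 22311, 6113 and 9402 in primordial DM, 26115, 18879 and 8644 in primary control, and 15823, 25135 and 4030 in primary DM. *Adrm1*, a ubiquitin receptor of the cap, had 2488, 41 and 6768 counts in primordial control and 1056, 10792 and 4 in primordial DM. It had 2241, 5231 and 81494 in primary control and 37, 29 and 19 in primary DM. The 81494 counts were in primary control 3, the library in which only 4 members reached 100.

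Some members share sequence with other genes, and their counts are less certain for that reason. At 95% identity or more over at least 300 bases, 9 members had 15 pseudogene copies in the annotation, the highest of which, a copy of *Psma4*, reached 2045 counts. Exons of *Psmb5*, *Psmd1*, *Psme2b* and *Psmg3* overlap those of another annotated gene on the same strand. Exons of *Psma4*, *Psma5*, *Psmb7*, *Psmb8*, *Psmb9*, *Psmc3*, *Psmd1*, *Psmd3*, *Psmd9*, *Psmd13*, *Psme1* and *Psmc3ip* overlap those of a gene on the other strand. The strand of the libraries is not given in the sources used here, so that reads of such overlaps cannot be assigned.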

How the data were processed

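The members of the set, the gene lists and the tests were chosen with earlier results of these data known. The authors deposited raw counts per gene for 12 libraries. Reads had been trimmed with Trim Galore, mapped to mm10 (with TopHat2 per the study's methods, with STAR per the submitters' processing notes) and counted with featureCounts; the study used DESeq2. A symbol was found for 55141 of 55401 identifiers; exon lengths and positions came from a GRCm38 annotation. Counts were analysed in R 4.3.3 with edgeR 4.0.16 (filterByExpr, TMM, quasi-likelihood test, Benjamini-Hochberg adjustment over all genes tested, threshold 0.05) on the libraries of the groups compared, or on all 12 for the interaction. Standard errors were derived from the fold change and the F statistic, and the code was tested on simulated data. DESeq2 1.42.0 was an alternative, beside its size factors, other filters, a replicate block, 1 fit of all libraries and each library left out; library size alone and a minimum of 100 counts were added once the data had been seen. Sequence copies were found with BLAST 2.17.0, promoters taken from RefSeq. No pair of libraries within a group agreed within sampling noise. Fold changes are given for members past the threshold or, where none passed, the 2 with the smallest p, and for *Psmb5*, *Psmb6* and *Psmb7* in the DM comparisons. Counts in every library are given for the member of each role with the highest median, for members with at least 10 counts in all libraries and for tissue-specific subunits; *Psmd4* was added to these after its values were seen. The remaining counts belong to genes named for a fold change. A gene of the list of other ubiquitin-proteasome genes is not reported here and was left out of that list's counts.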

Additional observations from a re-analysis of the deposited data

How the results depend on the processing

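With edgeR, 0 members had an adjusted p under 0.05 in all 5 comparisons under every alternative run, and in each of the 36 fits that left out a library (lowest 0, highest 0). DESeq2 called 1, 7, 2, 9 and 4 members (DM in primordial, DM in primary, stage in control, stage after DM, interaction) and an unadjusted p under 0.05 gave 1, 5, 2, 5 and 6; why the tools differ was not tested. The 14 named fold changes kept their direction in 84 alternative fits and 96 with a library left out.

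With the replicate number as a block, the members' median log2 fold change was -1.58 for DM in primary follicles and -3.14 for stage after DM, against 1.67 and 0.68 without it, with 0 members called. Same-numbered libraries did not deviate together (12 correlations, from -0.04 to 0.03), and neither did differently numbered ones (from -0.07 to 0.05). With pools this variable, such values cannot show whether same-numbered libraries share an ovary, culture or batch. With a library left out, which also changed which members passed the filter, the median ranged from -0.05 to 1.16 for DM in primordial follicles, from -4.37 to 1.90 in primary follicles, from -1.80 to 0.23 for stage in control, from -5.04 to 0.97 for stage after DM and from -3.00 to 0.79 for the interaction. The scale mattered: TMM factors ran from 0.261 to 2.87, and the median of all genes for DM in primary follicles was 0.31 with TMM, 2.12 with DESeq2's size factors and -0.96 with library size alone, an alternative added after seeing the data; the members' median minus that of all genes was 1.36, 2.05 and 0.75 on these scales, -0.48 with the replicate block, and -2.78 and -2.29 without primary DM 2 and 3.

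In primary DM, members detected per library numbered 29.3 at more than 3 counts, 12 at 1 CPM or more and 11.7 at 100 counts or more, a minimum added after seeing the data, against 19 at 10 counts; at 100 counts the primordial control mean was 27 against 33.3. Left-out means ranged from 30.5 to 36.5, 25.5 to 32.0, 23.5 to 32.5 and 19 to 19 (primordial control, primordial DM, primary control, primary DM). TMM-normalized, summed levels were 2975 CPM in primordial control and 12852 CPM in primary DM. On plain CPM and without the leading member, primary DM had 2691 against 5374 CPM. Left-out sums ranged from 4989 to 6285, 4566 to 5651, 4101 to 7384 and 4621 to 6496 CPM. Depth allows a member at 0 up to 3 counts per library.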
